A study of Homo sapiens with 9 samples.

Results

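Transcript levels of 40 genes of the unfolded protein response and of ATF4, the transcription factor of the integrated stress response, were examined in A498 cells after depletion of ARNT or of BMAL1. The genes were given as a list by name, and all 40 were found among the 27673 genes of the count table and passed the filter on low counts that left 15551 genes. They comprised 9 sensors and transcription factors, 7 amino acid and one-carbon genes driven by ATF4, 4 other outputs of ATF4 and its target CHOP, 15 endoplasmic reticulum (ER) chaperones and folding factors, and 5 genes of ER-associated degradation (ERAD). A498 cells are a standard line derived from a human clear cell renal cell carcinoma (ccRCC), a tumor in which loss of VHL stabilizes the hypoxia-inducible factor HIF2α. ARNT is the classical partner of HIF2α, BMAL1 pairs with CLOCK to run the circadian clock, and the study asked what each contributes to gene expression driven by HIF2α. There were 9 libraries in 3 groups of 3 biological replicates: cells with a control short hairpin RNA (shControl), with an shRNA against BMAL1 (shBMAL1), or with an shRNA against ARNT (shARNT). All cells, controls included, had been infected with lentivirus made from a pLKO.1 vector and kept in puromycin. Per the methods of the study ARNT was targeted with 1 hairpin, and the labels give a single shBMAL1 line, so an effect of the hairpin itself cannot be told apart from that of the depletion. No source used here says whether the replicates were separate infections, and p-values then measure only the spread between these samples.

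The unfolded protein response raises the folding capacity of the ER when unfolded proteins accumulate. The membrane sensor ATF6 is cleaved to release a transcription factor, the sensor IRE1 (gene ERN1) splices XBP1 mRNA, and both arms act on chaperone genes through ER stress elements in their promoters. The third sensor, PERK, phosphorylates the initiation factor eIF2α, which favours translation of ATF4, and ATF4 with C/EBP partners then raises genes of amino acid supply and the regulators CHOP (gene DDIT3), TRIB3 and PPP1R15A. Other kinases that sense amino acid shortage or heme feed into ATF4 as well, so that the chaperone genes and the amino acid genes can be driven apart. Counts per gene do not measure splicing of XBP1, cleavage of ATF6 or phosphorylation of eIF2α.

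The ER stress element consists of CCAAT, 9 bases of any kind, and CCACG. It was searched on both strands of RefSeq promoters (build GRCh38.p14, 300 bases each, 250 before and 50 after the start site), which were held for 35 of the 40 genes. PSPH, SHMT2, ALDH1L2, PDIA3 and NUPR1 had no entry. Of the 35 genes, 7 held the element, compared with 25 of all 27305 genes with a promoter (0.0916%). These were 6 of 14 chaperone genes and XBP1, and none of the 4 amino acid genes with a promoter, the 4 other outputs and the 5 ERAD genes. Only this exact form was searched, so a promoter without a match may still hold a variant of the element. The elements are shown so that the chaperone genes that hold one can be set beside those that do not. Each is read 5′ to 3′ along the gene with 5 flanking bases, the capitals mark both ends of the element, and the coordinates cover the element alone. In CALR, CRELD2 and the second HSP90B1 site the element lies on the other strand, so that CGTGG comes before ATTGG.
HSPA5, chr9:125241391-125241409, - strand: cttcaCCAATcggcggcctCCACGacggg
HSP90B1, chr12:103930216-103930234, + strand: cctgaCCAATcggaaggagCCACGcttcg
HSP90B1, chr12:103930321-103930339, + strand: gggtgCGTGGtgcggcgcgATTGGtgggt
CALR, chr19:12938384-12938402, + strand: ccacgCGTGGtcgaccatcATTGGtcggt
CANX, chr5:179698778-179698796, + strand: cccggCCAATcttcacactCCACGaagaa
PDIA6, chr2:10812853-10812871, - strand: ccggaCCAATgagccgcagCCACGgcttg
CRELD2, chr22:49918554-49918572, + strand: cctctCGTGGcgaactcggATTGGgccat
XBP1, chr22:28800603-28800621, - strand: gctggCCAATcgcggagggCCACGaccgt

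The promoter of HSPA5, which encodes the main HSP70 chaperone of the ER (BiP), is given whole to show the element in its setting, at chr9:125241294-125241593 on the minus strand, with both ends of the element in capitals.
HSPA5 promoter: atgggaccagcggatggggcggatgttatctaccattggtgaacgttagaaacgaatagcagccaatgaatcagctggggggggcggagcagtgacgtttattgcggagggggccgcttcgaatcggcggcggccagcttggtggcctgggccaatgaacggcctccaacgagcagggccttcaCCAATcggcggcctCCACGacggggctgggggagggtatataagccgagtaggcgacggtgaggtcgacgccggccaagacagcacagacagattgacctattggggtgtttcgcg

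The C/EBP-ATF element TGATGNAA, the composite site bound by ATF4 with a C/EBP partner, was found in the promoters of ASNS, CHAC1, CEBPG and HERPUD1, that is 4 of 35 genes, against 1217 of 27305 genes overall (4.46%). It is shown for ASNS and CHAC1, which are standard outputs of ATF4, with the element in capitals. In CHAC1 it lies on the other strand.
ASNS, chr7:97872469-97872476, - strand: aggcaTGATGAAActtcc
CHAC1, chr15:40953262-40953269, + strand: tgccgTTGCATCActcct

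The UPR element TGACGTGG was present in 1 promoter, that of HYOU1 (0.927% of genes overall). The E-box CACGTG, the site of CLOCK and BMAL1, was present in those of ATF4, HSP90B1, CANX, DNAJB9 and HERPUD1 (5 of 35 genes, 8.77% overall). One form of the core of the HIF site, ACGTG, which lies within the E-box and the UPR element, was present in 14 of 35 genes (24.9% overall). The study gives the HIF site with G or A at the first base of this core, and the form GCGTG was not searched. A match to such short letters is a description and not a bound site.

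**Figure D1:**
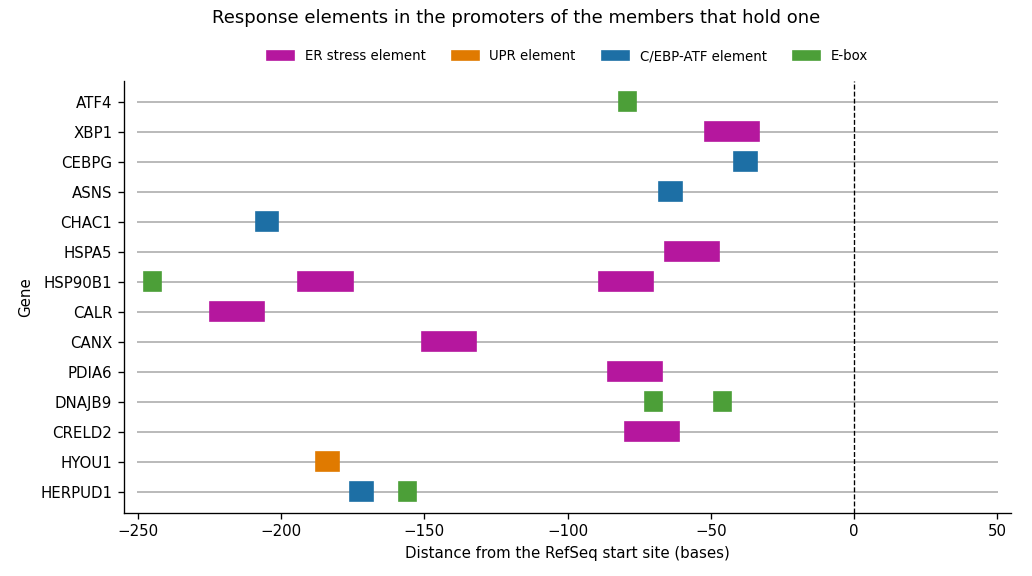
Position of 4 response elements (colours) in the promoters of the 14 genes that hold at least 1 of them, in bases from the RefSeq start site (dashed line). For genes with several promoters only the first that holds an element is drawn. The E-box of CANX lies in another of its promoters and is therefore not shown. The ER stress elements drawn begin between positions -225 (CALR) and -52 (XBP1), and HSP90B1 holds 2 of them.

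Library totals were even, from 35269857 to 36099083 counts. ARNT fell to 18.8% of its shControl level in shARNT cells, log2 fold change -2.41 ± 0.0667 (adjusted p = 1.35e-17), where ± gives the SE, as for all log2 fold changes here. BMAL1, listed as ARNTL, fell to 30.9% in shBMAL1 cells, log2 fold change -1.70 ± 0.101 (adjusted p = 1.94e-11). ARNT also fell in shBMAL1 cells, by 0.65 on the log2 scale, and ARNTL rose in shARNT cells, by 0.55. The epithelial keratins KRT8 and KRT18 and the renal factor PAX8 were present in all libraries. In CPM (counts relative to library size after TMM scaling), 10 renal and ccRCC markers summed to 8439.5 to 8463 per shControl library, to 6315 to 6739.6 per shBMAL1 library and to 2348 to 2526 per shARNT library, and 1 of the 10, NDUFA4L2, was under 1 CPM throughout. Most of the difference in this sum was VIM, the intermediate filament vimentin, with group means of 5974, 4309 and 812 CPM in that order. The members did not move together, since PAX8 had a mean of 35.98 CPM in shControl and 100.3 in shARNT, and KRT18 566 and 563. The other members were lower in shARNT. KRT8 went from 1099 CPM in shControl to 653 in shARNT, CDH2 from 241 to 165 and NNMT from 103 to 67.8. EPAS1, which encodes HIF2α, went from 345 to 74.3, CA9 from 76.4 to 1.06 and PAX2 from 9.85 to 6.71. In shBMAL1 EPAS1 was at 233, CA9 at 30.2 and NNMT, which was higher there than in shControl, at 188. Of 5 leukocyte markers 4 were under 1 CPM in every library, and the sum, in shControl 1786 to 1905 CPM, in shBMAL1 1754 to 1865 and in shARNT 136 to 149, came almost wholly from CD68, a lysosomal glycoprotein. All 3 endothelial markers were under 1 CPM, and 3 fibroblast markers summed in shControl to 2.25 to 2.58 CPM, in shBMAL1 to 0.497 to 0.522 and in shARNT to 0.151 to 0.227. The part of these differences in the results was not tested. All libraries were made from the A498 line, and in bulk RNA fewer cells of a kind within it and less RNA per cell cannot be told apart.

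Of the genes listed, most chaperones and 4 of the 5 ERAD genes were lower in shARNT cells, while most chaperones were higher in shBMAL1 cells. This did not extend to 17 further ERAD genes, of which 8 were lower and 7 higher in shARNT. Against shControl, at an adjusted p under 0.1 (edgeR quasi-likelihood test, Benjamini-Hochberg adjustment over all 15551 genes), 24 of the 40 genes were lower and 13 higher in shARNT cells, and 3 were not called. Of all genes tested, 81.8% were called in this contrast, 41.3% as lower and 40.5% as higher, so that a call alone says little about a gene here. In shBMAL1 cells 23 of the 40 were higher, 9 lower and 8 not called, beside 63.3% of all genes called, 31.9% as higher and 31.5% as lower. The median log2 fold change of the 40 genes was -0.37 in shARNT and 0.27 in shBMAL1, beside -0.01 and -0.00 for all genes, and the median size of a change over all genes was 0.66 and 0.32. The 3 CPM values of shARNT did not overlap those of shControl for 35 of the 40 genes (79.8% of all genes), and those of shBMAL1 for 31 (62.2% of all genes). Both contrasts use the same 3 shControl libraries. Scaling by library size alone, without TMM, moved the median of all genes by 0.24 in shARNT and 0.05 in shBMAL1, with 60.5% and 55.9% of calls then higher in place of 49.6% and 50.3%. Under it 20 members were lower and 16 higher in shARNT, and 9 and 25 in shBMAL1.

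**Figure D2:**
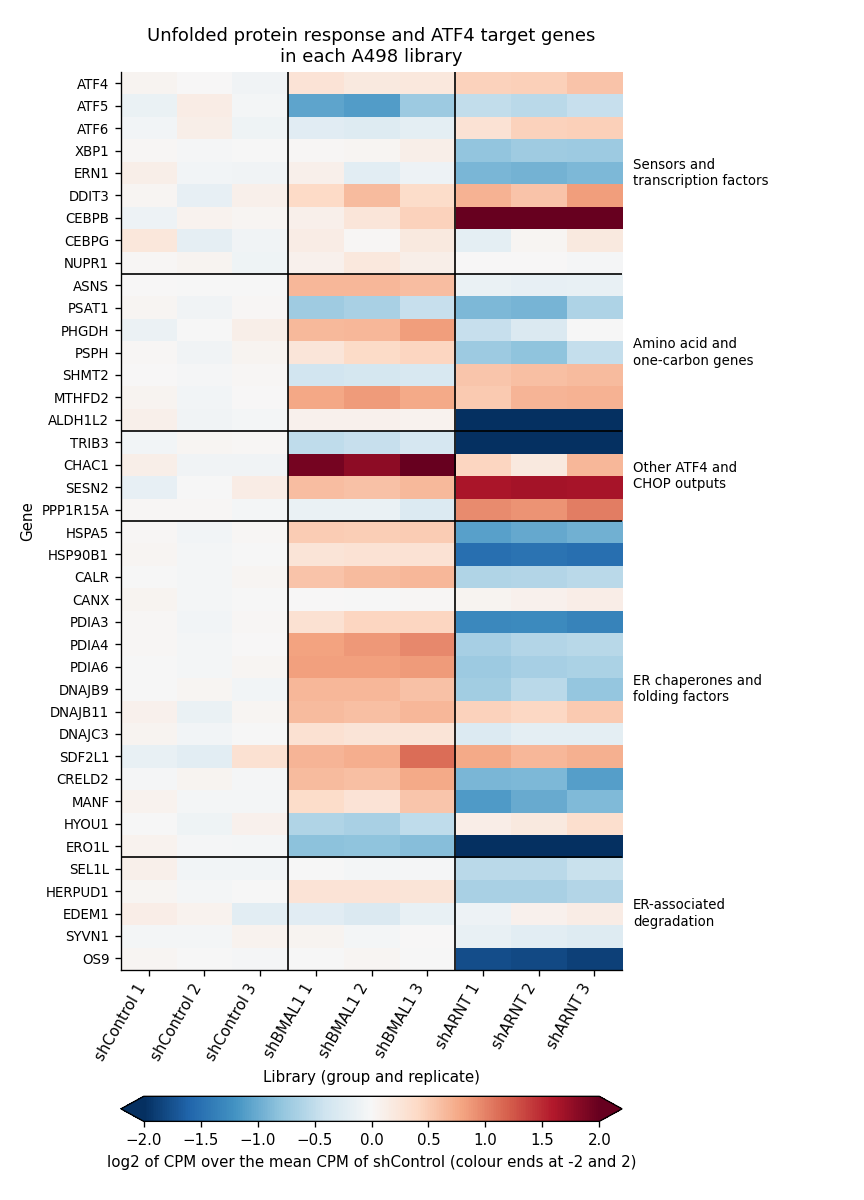
Level of each of the 40 genes (rows, grouped by role) in each of the 9 libraries (columns), as the log2 of CPM over the mean CPM of the 3 shControl libraries. Red is higher and blue lower, and colours end at -2 and 2. Most chaperone rows are blue in the 3 shARNT columns and red in the 3 shBMAL1 columns, while DNAJB11 and SDF2L1 are red in both, HYOU1 is blue in shBMAL1, and CANX is close to white.

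Of the 15 chaperones and folding factors, 11 fell and 4 rose in shARNT cells, with a median log2 fold change of -0.66, and 12 rose and 2 fell in shBMAL1 cells, with a median of 0.50. Their summed level was 7064 ± 173 CPM (SD, n = 3) in shControl, 9635 ± 206 in shBMAL1 (136% of shControl) and 4221 ± 96.5 in shARNT (59.8%). HSPA5, the chaperone that also holds the sensors inactive, was at 1062, 1008 and 1059 CPM in the shControl libraries, 1482, 1466 and 1491 in shBMAL1 and 494, 514 and 533 in shARNT. The groups did not overlap, every shBMAL1 library was above and every shARNT library below all controls. The log2 fold change of HSPA5 was -1.02 ± 0.0358 (adjusted p = 6.53e-16) in shARNT and 0.50 ± 0.0354 (adjusted p = 2.37e-10) in shBMAL1.

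HSP90B1, the HSP90 of the ER (GRP94), was at 1952, 1854 and 1897 CPM in shControl, 2271, 2329.7 and 2327 in shBMAL1 and 669, 683 and 668 in shARNT. Its log2 fold change of -1.50 ± 0.0325 (adjusted p = 2.92e-19) left 35.4% of the control level in shARNT, and the rise in shBMAL1 was smaller, 0.28 ± 0.0318 (adjusted p = 2.47e-07). CALR, the calcium-binding lectin chaperone calreticulin, was at 1353, 1323 and 1403 CPM in shControl, 2020.5, 2117 and 2163 in shBMAL1 and 899, 906 and 933 in shARNT. It thus lay at 67.1% of the control level in shARNT and 154% in shBMAL1, with no overlap of the groups. CANX, the membrane-bound lectin chaperone calnexin, did not follow them, although its promoter holds the same element: it was at 902, 843 and 864 CPM in shControl, 870.1, 862 and 883 in shBMAL1 and 902, 923 and 954 in shARNT. Its log2 fold change was 0.091 ± 0.0351 (adjusted p = 0.0244) in shARNT, a call that was lost without shControl replicate 2 (0.07, adjusted p = 0.141), and 0.004 ± 0.0351 (adjusted p = 0.941) in shBMAL1.

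The protein disulfide isomerases, which form and exchange disulfide bonds, were higher in shBMAL1 and lower in shARNT. PDIA4 was at 597, 576 and 595 CPM in shControl, 1033, 1076 and 1143 in shBMAL1 and 373, 393 and 399 in shARNT. PDIA6 was at 526, 511 and 541 CPM in shControl, 924, 931 and 952 in shBMAL1 and 317, 331 and 339 in shARNT. For both, the shBMAL1 libraries were the highest and the shARNT libraries the lowest, without overlap. The log2 fold change in shBMAL1 was 0.88 ± 0.0401 (adjusted p = 3.33e-13) for PDIA4, the largest rise of any chaperone there. For PDIA6 it was 0.83 ± 0.0361 (adjusted p = 1.59e-13), and in shARNT PDIA4 and PDIA6 fell by 0.60 and 0.68. PDIA3, the isomerase that works with calreticulin and calnexin, was at 291, 276 and 290.4 CPM in shControl, 352, 384 and 385 in shBMAL1 and 117, 118 and 113 in shARNT. It fell to 40.5% of the control in shARNT, log2 fold change -1.30 ± 0.0422 (adjusted p = 1.76e-16), and rose to 131% in shBMAL1.

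ERO1L, the oxidase that recharges the isomerases and a known HIF target, fell in both depletions. It was at 155, 145 and 143 CPM in shControl, 83.4, 84.8 and 82.2 in shBMAL1 and 31.96, 33.05 and 31.8 in shARNT. At -2.20 ± 0.0474 (adjusted p = 2.68e-19) in shARNT it had the largest fall of the 15, and in shBMAL1 it was -0.82 ± 0.0445 (adjusted p = 4.24e-12). HYOU1, the large HSP70-like exchange factor of BiP that is also known to respond to low oxygen, was the only member of the 15 that rose in shARNT and fell in shBMAL1. It was at 129.7, 124 and 139.7 CPM in shControl, 86.1, 83.4 and 91.996 in shBMAL1 and 143, 151 and 165 in shARNT. On the log2 scale this was -0.59 ± 0.056 (adjusted p = 2.12e-08) in shBMAL1, and the rise in shARNT was 0.22 ± 0.0547 (adjusted p = 9.97e-04).

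The J-domain partners of BiP were split. DNAJB9, a co-chaperone that restrains IRE1, was at 25.3, 26.1 and 24.5 CPM in shControl, 40.1, 39.97 and 37.9 in shBMAL1 and 15.6, 17.4 and 14.8 in shARNT. It fell in shARNT, -0.66 ± 0.0688 (adjusted p = 2.46e-08), and rose in shBMAL1, 0.64 ± 0.0654 (adjusted p = 6.25e-08). DNAJB11 was higher than all controls in both depletions, at 55.6, 47.9 and 53.7 CPM in shControl, 81.4, 79.7 and 83.1 in shBMAL1 and 71.7, 69.5 and 75.1 in shARNT. SDF2L1, which forms a complex with DNAJB11, had the same order of group means, at 6.43, 6.2 and 8.78 CPM in shControl, 11.5, 11.8 and 15.6 in shBMAL1 and 12.1, 11.4 and 11.7 in shARNT. Log2 fold changes in shARNT were 0.46 for DNAJB11 and 0.71 for SDF2L1, and in shBMAL1 they were 0.64 and 0.86, all called. DNAJC3, an inhibitor of PERK, was at 39.5, 36.5 and 37.6 CPM in shControl, 46.7, 45.2 and 45.3 in shBMAL1 and 31.3, 33.02 and 33.1 in shARNT. It changed least of the J-domain genes, with 0.27 in shBMAL1 and -0.22 in shARNT, a direction that turned to 0.01 under library size alone. CRELD2, a disulfide isomerase-like protein secreted under ER stress, was at 53.8, 56.3 and 53.3 CPM in shControl, 84.9, 83.02 and 92.3 in shBMAL1 and 29.01, 29.4 and 25.4 in shARNT. MANF, a secreted factor that binds BiP, was at 34.8, 32.3 and 32.3 CPM in shControl, 42.8, 39.9 and 48.5 in shBMAL1 and 15.2, 16.4 and 17.9 in shARNT. Both had every shBMAL1 library above and every shARNT library below the controls, and their log2 fold changes in shARNT were -0.96 ± 0.0612 (adjusted p = 1.04e-11) and -1.004 ± 0.0775 (adjusted p = 2.44e-10).

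**Figure D3:**
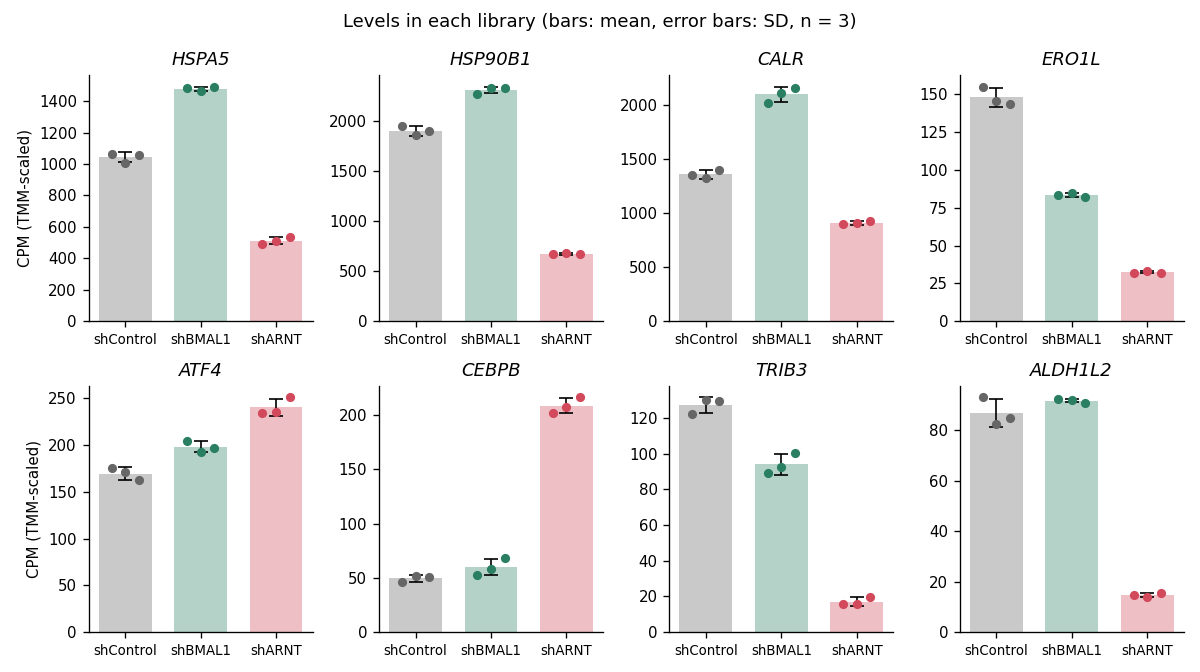
CPM on TMM-scaled library sizes of 8 genes, with bars for the mean of 3 libraries, error bars for the SD and points for the libraries. In the upper row HSPA5, HSP90B1 and CALR are highest in shBMAL1 and lowest in shARNT, and ERO1L is lower in both. In the lower row ATF4 and CEBPB are highest in shARNT, where TRIB3 and ALDH1L2 are lowest.

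Among the 9 sensors and transcription factors 4 rose and 3 fell in shARNT cells, and 4 rose and 2 fell in shBMAL1 cells. ATF4 mRNA was at 175, 171 and 162 CPM in shControl, 204, 193 and 197 in shBMAL1 and 234, 235 and 251 in shARNT, so that the groups did not overlap. The log2 fold change was 0.50 ± 0.0423 (adjusted p = 9.70e-10) in shARNT and 0.23 ± 0.0425 (adjusted p = 1.32e-04) in shBMAL1. CEBPB, a C/EBP factor that pairs with ATF4 and CHOP, had the largest rise of the 40 genes in shARNT. Its CPM was 46.2, 51.97 and 50.8 in shControl, 53.03, 58.6 and 68.4 in shBMAL1 and 202, 208 and 216 in shARNT. That is 4.21 times the control in shARNT, log2 fold change 2.07 ± 0.0688 (adjusted p = 2.69e-16), and the rise in shBMAL1, 0.27 ± 0.0701 (adjusted p = 0.00234), was 0.17 (adjusted p = 0.0227) without shBMAL1 replicate 3. DDIT3, which encodes the pro-apoptotic factor CHOP, was at 9.01, 7.84 and 9.38 CPM in shControl, 11.5, 13.5 and 11.3 in shBMAL1 and 14.2, 12.97 and 15.6 in shARNT. Its log2 fold change was 0.70 ± 0.102 (adjusted p = 3.02e-06) in shARNT and 0.47 ± 0.105 (adjusted p = 7.01e-04) in shBMAL1. An exon of DDIT3 overlaps MARS, the methionyl-tRNA synthetase gene, which was at 1015% to 1425% of the level of DDIT3 and rose by 1.19 in shARNT and 0.76 in shBMAL1, and the share of its reads counted for DDIT3 was not tested.

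The factors of the IRE1 arm were lower in shARNT cells. XBP1, the target of IRE1, was at 156, 151 and 152 CPM in shControl, 156, 158 and 166 in shBMAL1 and 88.7, 93.3 and 92.6 in shARNT. Every shARNT library lay below the others, log2 fold change -0.74 ± 0.0412 (adjusted p = 1.13e-12), while the value in shBMAL1 was 0.06 ± 0.0406 (adjusted p = 0.204) and became a call, 0.11 with adjusted p = 0.0268, under library size alone. ERN1 (IRE1) was at 16.6, 14.8 and 14.5 CPM in shControl, 16.4, 13.3 and 14.2 in shBMAL1 and 8.1, 7.99 and 8.21 in shARNT, and fell in shARNT, -0.92 ± 0.0952 (adjusted p = 2.48e-08). ATF6, in contrast, was highest in shARNT, at 58.3, 65.7 and 66.5 CPM, compared with 46.3, 52.1 and 45.1 in shControl and 40.9, 40.1 and 41.7 in shBMAL1. In shARNT this was a rise of 0.41 ± 0.0616 (adjusted p = 4.65e-06) on the log2 scale, and in shBMAL1 the value was -0.23 ± 0.0633 (adjusted p = 0.00467). ATF5, a factor translated in the same way as ATF4, fell in both, at 13.4, 16.3 and 14.4 CPM in shControl, 7.08, 6.79 and 8.94 in shBMAL1 and 10.5, 10.1 and 10.7 in shARNT. NUP62 and IL4I1 overlap exons of ATF5 and were at 521% and 168% of its level in shControl, so its counts are uncertain. CEBPG, a C/EBP factor without an activation domain of its own, was at 16.8, 12.6 and 13.7 CPM in shControl, 15.9, 14.7 and 16.4 in shBMAL1 and 12.5, 14.7 and 16.4 in shARNT. It was called in neither depletion, with 0.02 ± 0.107 (adjusted p = 0.883) in shARNT and 0.12 ± 0.108 (adjusted p = 0.344) in shBMAL1, although it became a call in shARNT under library size alone (0.25, adjusted p = 0.0362) and in shBMAL1 without shControl replicate 1 (0.25, adjusted p = 0.0568). NUPR1, a small stress-induced nuclear protein, was at 46.3, 47.2 and 43.02 CPM in shControl, 48.2, 52.9 and 49.3 in shBMAL1 and 45.9, 45.99 and 44.97 in shARNT. The log2 fold change of NUPR1 was 0.004 ± 0.0546 (adjusted p = 0.95) in shARNT, where it became a call under library size alone (0.24, adjusted p = 5.68e-04), and 0.14 ± 0.0547 (adjusted p = 0.035) in shBMAL1, a call that was lost without shControl replicate 3 (adjusted p = 0.169) or shBMAL1 replicate 2 (adjusted p = 0.177).

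Of the 7 amino acid and one-carbon genes, 5 fell and 2 rose in shARNT cells (median -0.24), and 4 rose, 2 fell and 1 was not called in shBMAL1 cells (median 0.35). Under library size alone 3 of the 5 falls in shARNT remained called. The serine pathway from glycolysis, PHGDH, PSAT1 and PSPH in order of the reactions, was not uniform. PHGDH was at 33.6, 36.3 and 39.5 CPM in shControl, 57.1, 58.03 and 65.04 in shBMAL1 and 26.6, 29.8 and 36.5 in shARNT. It rose in shBMAL1, 0.72 ± 0.0871 (adjusted p = 6.12e-07), while in shARNT, where 1 library overlapped the controls, its value of -0.24 ± 0.0892 (adjusted p = 0.0215) turned to 0.0016 under library size alone. That call was also lost without shControl replicate 3 (-0.18, adjusted p = 0.107) or shARNT replicate 1 (-0.14, adjusted p = 0.16), and the value was -0.37 without shARNT replicate 3. PSAT1 was at 39.5, 36.7 and 39.2 CPM in shControl, 23.6, 24.4 and 27.99 in shBMAL1 and 20.7, 20.3 and 25.1 in shARNT, and fell in both, by 0.60 in shBMAL1 and 0.81 in shARNT. PSPH was at 27.4, 25.6 and 28.1 CPM in shControl, 32.1, 35.1 and 36.3 in shBMAL1 and 16.3, 15.4 and 19.4 in shARNT, which gave 0.35 ± 0.0775 (adjusted p = 6.33e-04) in shBMAL1, while in shARNT it was -0.67 ± 0.0805 (adjusted p = 2.41e-07).

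ASNS, asparagine synthetase and a standard readout of ATF4, was at 37.997, 37.4 and 37.4 CPM in shControl, 59.7, 59.6 and 57.4 in shBMAL1 and 34.4, 33.7 and 34.1 in shARNT. It rose in shBMAL1, 0.65 ± 0.0499 (adjusted p = 9.34e-10), and in shARNT its small fall of -0.14 ± 0.0508 (adjusted p = 0.015) turned to 0.09 (adjusted p = 0.104) under library size alone. The mitochondrial one-carbon genes each had a different order of groups. SHMT2, which makes glycine and one-carbon units from serine, was at 232, 227 and 234 CPM in shControl, 177, 180.2 and 185 in shBMAL1 and 340.4, 351 and 358 in shARNT, and was thus highest in shARNT and lowest in shBMAL1. MTHFD2, the next enzyme of that route, rose in both, at 44.1, 41.2 and 42.7 CPM in shControl, 73.2, 76.8 and 72.1 in shBMAL1 and 61.5, 68.4 and 69.4 in shARNT. ALDH1L2, which oxidizes the one-carbon unit to carbon dioxide, was at 92.996, 82.6 and 84.7 CPM in shControl, 92.2, 92.1 and 90.8 in shBMAL1 and 14.6, 13.8 and 15.4 in shARNT. The log2 fold change of ALDH1L2 was -2.57 ± 0.0591 (adjusted p = 7.17e-19) in shARNT, which left 16.8% of the control level, and 0.08 ± 0.0518 (adjusted p = 0.195) in shBMAL1, where it became a call without shControl replicate 1 (0.13, adjusted p = 0.0393) and under library size alone (0.13, adjusted p = 0.0489). SHMT2 was the largest contributor to the summed level of the list, which was 499.8 ± 11.6 CPM in shControl, 525 ± 9.8 in shBMAL1 and 535 ± 21.9 in shARNT.

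The 4 other outputs did not share 1 direction. TRIB3, a pseudokinase that restrains ATF4 and CHOP, had the largest fall of the 40 genes. It was at 122, 130.01 and 129 CPM in shControl, 89.0, 92.5 and 100.3 in shBMAL1 and 15.9, 15.6 and 19.9 in shARNT. Each shBMAL1 library was below all controls and each shARNT library far below both. The fall was -0.44 ± 0.065 (adjusted p = 8.98e-06) in shBMAL1, and that in shARNT was -2.89 ± 0.0738 (adjusted p = 3.57e-18). SESN2, a leucine sensor that restrains mTORC1, went the other way, at 12.98, 14.5 and 16.01 CPM in shControl, 22.3, 21.6 and 22.6 in shBMAL1 and 44.9, 45.7 and 45.6 in shARNT. It rose by a log2 fold change of 1.65 ± 0.0693 (adjusted p = 1.25e-14) in shARNT and 0.61 ± 0.0723 (adjusted p = 4.19e-07) in shBMAL1. PPP1R15A (GADD34), the phosphatase subunit that removes phosphate from eIF2α, rose in shARNT, 0.96 ± 0.0484 (adjusted p = 2.54e-13), and fell in shBMAL1, -0.18 ± 0.0494 (adjusted p = 0.00474). Its CPM was 93.6, 93.3 and 89.2 in shControl, 84.4, 83.98 and 76.1 in shBMAL1 and 177, 172 and 187 in shARNT. CHAC1, an enzyme that degrades glutathione, was the least abundant of the 40 genes per kilobase, with 46 counts in its lowest library. Its CPM was 1.59, 1.4 and 1.39 in shControl, 5.53, 5.05 and 5.94 in shBMAL1 and 1.97, 1.67 and 2.32 in shARNT. CHAC1 thus had the largest rise of the 40 in shBMAL1, 1.91 ± 0.173 (adjusted p = 1.03e-08), and a smaller one in shARNT, 0.44 ± 0.187 (adjusted p = 0.037), a call that was lost without shARNT replicate 3 (0.32, adjusted p = 0.163).

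Of the 5 ERAD genes, which mark, extract and ubiquitinate misfolded proteins, 4 fell in shARNT cells and 1 was not called, whereas in shBMAL1 cells 1 rose, 1 fell and 3 were not called. OS9, a lectin that recognizes misfolded glycoproteins, had the largest fall of these. It was at 873, 841 and 829 CPM in shControl, 847, 873 and 845 in shBMAL1 and 249, 243 and 231 in shARNT. Its log2 fold change of -1.81 ± 0.0376 (adjusted p = 1.45e-19) left 28.4% of the control in shARNT, and in shBMAL1 the value was 0.01 ± 0.0362 (adjusted p = 0.795). HERPUD1, a scaffold of the degradation complex, was at 102, 97.4 and 99.6 CPM in shControl, 120.4, 121 and 119 in shBMAL1 and 63.4, 63.4 and 66.2 in shARNT. It was the only ERAD gene called higher in shBMAL1, 0.27 ± 0.042 (adjusted p = 1.69e-05). It fell in shARNT, -0.63 ± 0.0428 (adjusted p = 3.00e-11). SEL1L, the adaptor of the ubiquitin ligase, was at 80.1, 72.4 and 71.96 CPM in shControl, 74.03, 72.6 and 73.7 in shBMAL1 and 51.6, 51.4 and 54.9 in shARNT, which gave -0.51 ± 0.0516 (adjusted p = 1.84e-08) in shARNT and -0.03 ± 0.0511 (adjusted p = 0.682) in shBMAL1. For SYVN1, the ligase itself (HRD1), the fall in shARNT, -0.20 ± 0.0545 (adjusted p = 0.00202), turned to 0.03 (adjusted p = 0.586) under library size alone. MRPL49, at 141% of its level in shControl, overlaps SYVN1, which was at 47.97, 47.8 and 51.8 CPM in shControl, 51.2, 48.04 and 49.6 in shBMAL1 and 44.5, 42.4 and 41.1 in shARNT. EDEM1, which trims mannose from misfolded glycoproteins, was at 34.2, 32.8 and 26.9 CPM in shControl, 26.9, 25.6 and 28.4 in shBMAL1 and 29.3, 33.2 and 34.7 in shARNT. Its log2 fold change was 0.05 ± 0.0812 (adjusted p = 0.582) in shARNT, where it became a call under library size alone (0.29, adjusted p = 0.00323), and -0.22 ± 0.0829 (adjusted p = 0.0313) in shBMAL1. The latter call was lost without shControl replicate 1 (adjusted p = 0.165), shControl replicate 2 (adjusted p = 0.116) or shBMAL1 replicate 2 (adjusted p = 0.115).

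**Figure D4:**
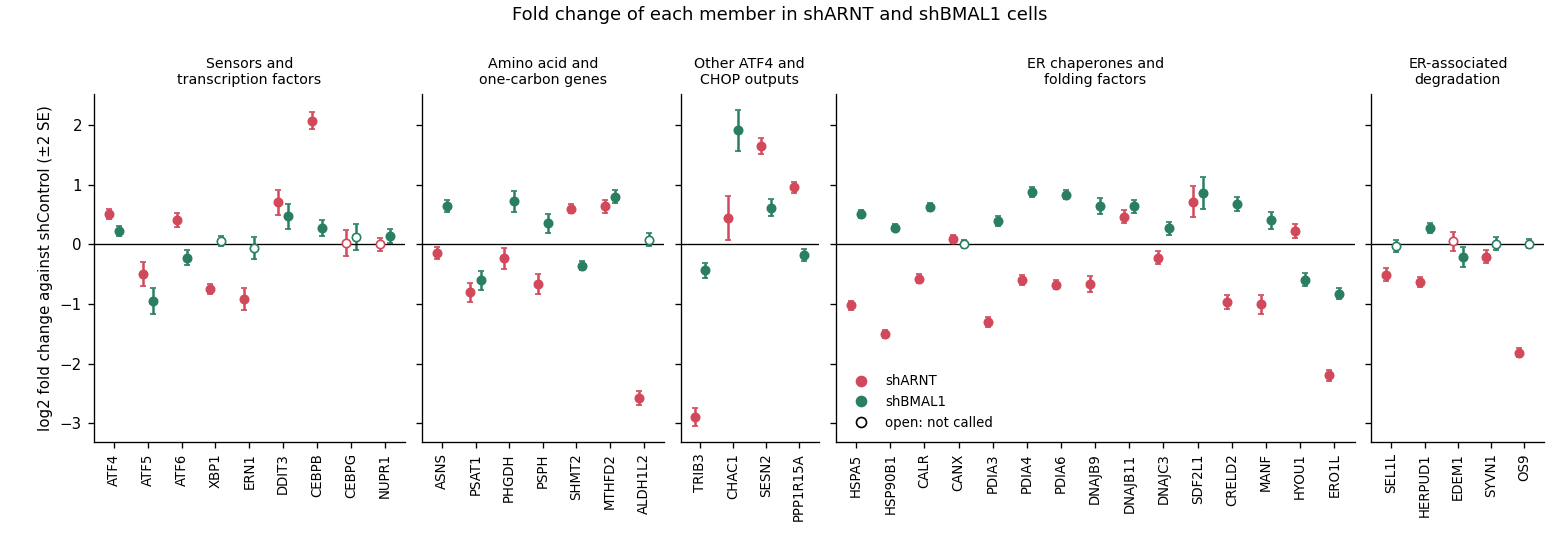
Log2 fold change of each of the 40 genes against shControl in shARNT (red) and shBMAL1 (green), from the edgeR fit, with bars of 2 SE and open points for genes not called at an adjusted p under 0.1. Both contrasts share the 3 shControl libraries. Among the chaperones most red points lie below 0 and most green points above. Every list holds points on both sides of 0 in each depletion. Among the ERAD genes only EDEM1, which was not called, lies above 0 in shARNT.

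The chaperones and the amino acid genes were set against each other within libraries, where scaling between libraries drops out. In shARNT cells the chaperone median lay 0.43 below the amino acid median on the log2 scale, and in shBMAL1 cells 0.15 above it. In the single libraries, each against the shControl mean, the difference was -0.24, -0.30 and -0.49 in shARNT, 0.26, 0.11 and 0.12 in shBMAL1, and 0.01, 0.01 and -0.01 in shControl. The shARNT and shBMAL1 values did not overlap, as was so for 79.6% of all single genes. The shControl values are centred near 0 by construction, because each library was set against the mean of those same libraries. Their distance from the depleted libraries is therefore not a separate result. In shARNT it was -0.25 without shARNT replicate 3, and -0.16 when means took the place of medians. With the 9 classic chaperones and isomerases alone it was -0.37. Both lists had a negative median in shARNT and a positive one in shBMAL1. The amino acid median in shARNT is the value of PHGDH, which under library size alone was 0.0016, so that the sign of this median depends on the scaling. No test was run on this difference, because the lists were chosen with results of these data known.

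**Figure D5:**
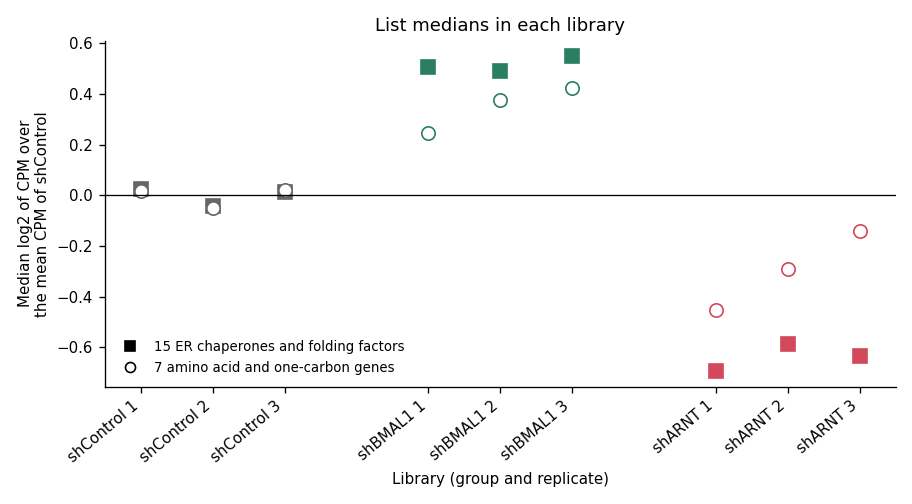
Median log2 of CPM over the shControl mean for the 15 chaperones and folding factors (filled squares) and the 7 amino acid and one-carbon genes (open circles) in each library. In the 3 shARNT libraries the squares lie below the circles, in the 3 shBMAL1 libraries above them, and in the shControl libraries both lie near 0.

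Compared directly, in the same fit of all 9 libraries, 27 of the 40 genes were lower and 11 higher in shARNT than in shBMAL1 cells, with a median log2 fold change of -0.64. Of all genes, 81.2% were called in this contrast, 41.1% as lower and 40.1% as higher, and the median of all genes was -0.01. The CPM of the groups did not overlap for 36 of the 40 genes, and for 79.6% of all genes. Among the chaperones 12 of 15 were lower, with a median of -1.37, and PDIA6, HSPA5, CRELD2, PDIA3 and HSP90B1 lay between -1.51 and -1.78. HSP90B1 had the largest of these differences, -1.78 ± 0.0328 (adjusted p = 2.25e-20). Higher in shARNT than in shBMAL1 were HYOU1, 0.81 ± 0.0557 (adjusted p = 3.67e-11), and CANX, 0.087 ± 0.0351 (adjusted p = 0.0301), the latter no longer called once shARNT replicate 3 was left out (adjusted p = 0.109). The value for DNAJB11, -0.17, turned to 0.02 under library size alone, where 11 of 15 were lower. Library size alone moved the median of all genes by 0.19 in this contrast, with 58.6% of calls then higher in place of 49.4%.

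Of the amino acid genes 6 were lower and 1, SHMT2, higher in the direct comparison (0.95 ± 0.037 (adjusted p = 3.39e-15)). ALDH1L2 differed most, -2.65 ± 0.059 (adjusted p = 4.23e-19). PSAT1 differed by only -0.20 ± 0.0816 (adjusted p = 0.0292), a call that was lost under library size alone (-0.013, adjusted p = 0.888) and without shARNT replicate 1 (adjusted p = 0.122), shARNT replicate 2 (adjusted p = 0.15) or shBMAL1 replicate 3 (-0.13, adjusted p = 0.172), and that was -0.31 without shARNT replicate 3. MTHFD2, at -0.16 ± 0.0533 (adjusted p = 0.012), turned to 0.03 under library size alone and was -0.10 (adjusted p = 0.099) without shARNT replicate 1. Of the sensors and factors, CEBPB (1.80), ATF6 (0.64), ATF5 (0.46), ATF4 (0.28) and DDIT3 (0.24) were higher in shARNT. The DDIT3 call was lost without shBMAL1 replicate 1 (adjusted p = 0.122), shBMAL1 replicate 3 (adjusted p = 0.135) or shARNT replicate 3 (adjusted p = 0.171). ERN1 (-0.85) and XBP1 (-0.81) were lower, as was NUPR1 (-0.14), which turned to 0.05 under library size alone and lost its call without shBMAL1 replicate 2 (adjusted p = 0.153). SESN2 (1.03) and PPP1R15A (1.13) were higher in shARNT, and CHAC1 (-1.47) and TRIB3 (-2.46) lower. The ERAD genes OS9, HERPUD1, SEL1L and SYVN1 were lower in shARNT and EDEM1 was higher, the SYVN1 call being lost under library size alone (adjusted p = 0.669).

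Levels between genes were compared per kilobase of the canonical transcript. In shControl cells the highest members were CALR (715 CPM per kilobase), HSP90B1 (683), OS9 (316), HSPA5 (266), PDIA6 (231) and PDIA4 (213). ATF4 (119) was the highest of the transcription factors, and ERN1 (1.94) and CHAC1 (0.961) were the lowest of the 40. In shARNT cells CEBPB reached 114 CPM per kilobase from 26.99 in shControl, whereas TRIB3 went from 53.9 to 7.26. The genes described here in most detail lie, in GRCh37, at chr9:127997132-128003661 (HSPA5), chr12:104323885-104347709 (HSP90B1), chr19:13049392-13055303 (CALR), chr14:53106633-53162618 (ERO1L), chr22:39915700-39918688 (ATF4), chr20:48807367-48809205 (CEBPB), chr20:343479-378203 (TRIB3) and chr12:105413562-105501421 (ALDH1L2).

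Chaperones with and without a match to the searched form of the ER stress element in the promoter were set side by side. Of the 6 with the element, 5 fell in shARNT (median -0.82) and 5 rose in shBMAL1 (median 0.57), CANX being the exception in each. Of the 8 without it, 5 fell and 3 rose in shARNT (median -0.41), and 6 rose and 2 fell in shBMAL1 (median 0.52). XBP1, which also holds the element, fell in shARNT. The 3 chaperones that rose in shARNT and lack the element were DNAJB11, SDF2L1 and HYOU1.

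A further 83 genes of the pathway, which are not members, were also examined. In shARNT cells 50 of them were lower and 26 higher (median -0.33). In shBMAL1 cells 23 of them were lower and 46 higher (median 0.14). Of all genes tested, 41.3% were called lower and 40.5% higher in shARNT, and 31.5% and 31.9% in shBMAL1. Among 31 genes of ER folding and import, 24 were lower and 5 higher in shARNT, while 17 were higher and 11 lower in shBMAL1. PPIB, the cyclophilin of the ER, fell in shARNT from 433 ± 17.8 to 90.5 ± 4.48 CPM (SD, n = 3), a log2 fold change of -2.26 ± 0.0441 (adjusted p = 6.26e-20). DNAJC10, a disulfide reductase of the ER, rose in shBMAL1 from 142 ± 2.87 to 379.8 ± 6.64 CPM, 1.42 ± 0.0389 (adjusted p = 1.76e-16), and SSR2, a subunit of the translocon-associated complex, fell there from 359.8 ± 14.98 to 105 ± 3.62, -1.77 ± 0.0424 (adjusted p = 2.64e-17).

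Of 22 other ATF4 and CHOP targets, 10 were higher and 10 lower in shARNT (median 0.05). That was 45.5% each, near the 40.5% and 41.3% of all genes. In shBMAL1 13 were higher and 6 lower (median 0.33), 59.1% and 27.3% beside 31.9% and 31.5% of all genes. GDF15, a stress-induced cytokine, rose from 54.1 ± 3.81 CPM to 416 ± 3.55 in shARNT and 144 ± 14.4 in shBMAL1. BBC3, which encodes the pro-apoptotic protein PUMA, rose by log2 fold changes of 2.29 and 1.15, and GADD45A, a growth arrest gene, by 0.76 and 1.63. VEGFA, an angiogenic factor that is a target of both HIF and ATF4, fell to 6.81% of the control in shARNT, and SLC7A5, a carrier of large neutral amino acids, fell by 1.63 in shARNT and 1.17 in shBMAL1. Of 13 other sensors and signalling genes 8 were lower and 4 higher in shARNT, and 2 and 9 in shBMAL1. Of 17 other ERAD genes 8 were lower and 7 higher in shARNT (median -0.02), and 4 and 7 in shBMAL1 (median -0.01). The shares in shARNT, 47.1% and 41.2%, were near those of all genes, unlike those of the 5 listed ERAD genes.

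The libraries were stranded, but no source used here says whether strand was used in counting, so overlapping genes limit some members. Besides ATF5, DDIT3 and SYVN1 this touches ALDH1L2 in shARNT, where the overlapping C12orf45 was at 60.2% of its level and had itself risen by 0.70. For PDIA3, MTHFD2, SHMT2, HSP90B1 and PDIA6 the overlapping gene with a level here was at no more than 4.56% of the member in any group. Protein-coding genes known only by an identifier also overlap exons of DNAJB11, PDIA3, MTHFD2, ATF5 and DDIT3. No level was matched to them, so their part in these counts was not tested.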

How the data were processed

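Stranded mRNA libraries of A498 cells were sequenced as paired-end reads. The authors deposited expected counts, that is linear read numbers for each gene with no scaling. Per the methods of the study, reads were aligned to GRCh37 with SeqMan NGen and exported with ArrayStar, whereas the submitters' processing notes name STAR, DESeq2 and hg38, and which of them made the table could not be settled. A value of 0.05, which stands for no reads, was set to 0, and values were rounded. Of 27716 rows, those of 43 repeated names were summed, which gave 27673 genes, and 28 were named by a date. Depth was 35269857 to 36099083 counts per library, and whether reads or read pairs were counted is not given in the sources used here.

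Genes were tested with edgeR 4.0.16 (glmQLFit and glmQLFTest, R 4.3.3) on all 9 libraries with group as the only factor, TMM scaling and filterByExpr, at a Benjamini-Hochberg adjusted p under 0.1. The fit was tested on simulated data. Levels are CPM on TMM-scaled library sizes. Alternatives were DESeq2 1.42.0, other scalings, filters, folds and sample sets. The members and lists were chosen with earlier results of these data known. All 40 members, ARNT and ARNTL were named, and of 83 further pathway genes the 2 largest rises and 2 largest falls per depletion among called genes (mean log2 CPM from 2 up, libraries not overlapping shControl). Gene positions came from GENCODE 44 lifted to GRCh37 and promoters from RefSeq (GRCh38.p14). Protein C-termini were not analysed here.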

Additional observations from a re-analysis of the deposited data

Results flagged for a closer look

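Each of the 38 values below is the log2 fold change of shARNT over shBMAL1, and was picked out because the effects of the depletions against the same control differed by the direct test between them (edgeR, adjusted p under 0.1, 81.2% of all genes). Among the chaperones the values were -1.78 for HSP90B1, -1.69 for PDIA3, -1.63 for CRELD2, -1.53 for HSPA5, -1.51 for PDIA6 and -1.48 for PDIA4. Next came MANF at -1.40, ERO1L at -1.37, DNAJB9 at -1.30, CALR at -1.20, DNAJC3 at -0.50 and DNAJB11 at -0.17, with CANX at 0.087 and HYOU1 at 0.81 on the other side. Among the amino acid genes the values were -2.65 for ALDH1L2, -1.02 for PSPH, -0.96 for PHGDH, -0.79 for ASNS, -0.20 for PSAT1 and -0.16 for MTHFD2, and 0.95 for SHMT2. Among the sensors and factors they were 1.80 for CEBPB, 0.64 for ATF6, 0.46 for ATF5, 0.28 for ATF4, 0.24 for DDIT3, -0.14 for NUPR1, -0.81 for XBP1 and -0.85 for ERN1. The other outputs were at -2.46 for TRIB3, -1.47 for CHAC1, 1.03 for SESN2 and 1.13 for PPP1R15A. The ERAD genes were at -1.83 for OS9, -0.90 for HERPUD1, -0.48 for SEL1L, -0.22 for SYVN1 and 0.27 for EDEM1. CEBPG and SDF2L1 were not called in this contrast. The groups of 3 libraries were too small for a test of single outlying libraries.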

How the results depend on the processing

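The 1920 combinations of a member, a contrast and an alternative left out the minimum fold change. Of these, 1863 kept their direction and their side of the threshold, and 31 changed sign. With the sign kept, 19 lost a call and 7 gained one. Some changes of sign were lost calls as well, all under library size alone. These were ASNS, PHGDH, DNAJC3 and SYVN1 in shARNT, and NUPR1, MTHFD2 and DNAJB11 between the depletions. No member lost or gained a call or changed sign with the replicate number as a block, without the filter or with halved counts. A minimum fold change of 1.5 left 4 members higher and 14 lower in shARNT, 5 and 2 in shBMAL1, and 5 higher in shARNT than in shBMAL1. Of all 15551 genes it left 6965 called in shARNT, 3116 of them higher, and 2111 in shBMAL1, 1027 of them higher. Between the depletions it left 6831 genes called, 3017 of them higher. For chaperones it left 0 higher and 8 lower in shARNT, compared with 4 and 11 without it. In shBMAL1 it left 3 chaperones higher and 1 lower, compared with 12 and 2. Between the depletions 1 chaperone stayed higher in shARNT. For amino acid genes it left 0 higher and 2 lower in shARNT, and 1 higher and 0 lower in shBMAL1. With means in place of medians the chaperones minus the amino acid genes came to -0.16 in shARNT and -0.30 between the depletions. Library size alone left 3 amino acid genes lower in shARNT. Under it the sign changed in shARNT for ASNS (0.094), PHGDH (0.0016), DNAJC3 (0.013) and SYVN1 (0.033), in shBMAL1 for SEL1L (0.0202), and between the depletions for CEBPG (0.085), NUPR1 (0.055), MTHFD2 (0.034), DNAJB11 (0.016) and SDF2L1 (0.044), which follows from the shift of the median of all genes. CANX in shBMAL1 was -0.0031 with RLE factors, -0.0031 with DESeq2 and -0.0017 in a fit of 6 libraries, where NUPR1 in shARNT was -0.0075.

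Leaving out 1 library at a time, the chaperones minus the amino acid genes in shARNT ranged from -0.50 to -0.25, and the chaperones higher in shARNT than in shBMAL1 from 1 to 2. In shARNT CEBPG ranged from -0.074 to 0.14, NUPR1 from -0.037 to 0.028 and EDEM1 from -0.0496 to 0.12. In shBMAL1 ERN1 ranged from -0.15 to 0.00059, CANX from -0.0199 to 0.0302, SEL1L from -0.055 to 0.025, SYVN1 from -0.0095 to 0.0504 and OS9 from -0.0044 to 0.033. Between the depletions SDF2L1 ranged from -0.23 to 0.0019. All of these were uncalled values near 0. Replicate numbers did not pair the libraries: same-numbered deviations correlated at -0.041 to 0.075. In 4 of 18 comparisons of a library with another group it correlated best with its own number. With the replicate block 24 members were lower and 13 higher in shARNT, as without it, and of the other named genes PPIB in shBMAL1 became a call (0.08, adjusted p = 0.0765). Depth was not limiting for most members, and CHAC1, with 46 to 202 counts, was measured least precisely.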

Other observations

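The ER stress element was also present in the promoters of 18 genes outside the 40, of which 9 passed the filter on low counts. They were examined after their values were seen, so the following is a description. In shARNT cells 5 of the 9 were lower and 3 higher (median -0.57). In shBMAL1 cells 3 of the 9 were lower and 3 higher (median 0.10). Of all genes, 41.3% were called lower and 40.5% higher in shARNT, and 31.5% and 31.9% in shBMAL1. SYNPO, which encodes the actin-associated protein synaptopodin, was at a log2 fold change of -4.37 (adjusted p = 7.02e-24) after depletion of ARNT and of -0.08 (adjusted p = 0.0733) after that of BMAL1. FICD, which modifies BiP, was higher in both, at 0.92 and 0.72.

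In 2 cases a single element lies between 2 divergent genes and is counted in both promoters. CRELD2 and ALG12, a mannosyltransferase of the ER, share the element at chr22:49918554-49918572 (GRCh38.p14). In shBMAL1 cells CRELD2 rose by 0.67 and ALG12 fell by 0.27 (adjusted p = 2.97e-04), and in shARNT cells both fell, by 0.96 and 1.03. SERP1, a protein of the translocon, and EIF2A, an initiation factor, share the element at chr3:150546710-150546728. SERP1 fell by 0.63 in shARNT and rose by 0.19 in shBMAL1, whereas EIF2A rose by 0.24 and fell by 0.22. Each of these values was called at an adjusted p under 0.1.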
